A study of Mus musculus with 12 samples.

Results

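Polysome-bound RNA was compared with total RNA in the injured mouse spinal cord, on 3 arrays of each, 6 of the 12 arrays of the series. The arrays were chosen by their labels alone, as injured polysome-bound replicates 1 to 3 and injured total replicates 1 to 3. All cords came from wild-type C57BL/6 female mice aged 10 weeks. In the injured group 80% of the cord was cut across after laminectomy, and 2.5 cm of cord around the lesion was taken 9 hours later. The sham group, called naive in the sample titles, had the laminectomy only. Each cord was broken up in a Dounce homogenizer, a small aliquot gave the total RNA, and the remainder was spun through a sucrose gradient to give polysome-bound RNA. Biotin-labelled cRNA was made from 5 µg of total or 3 µg of polysome-bound RNA and read on Affymetrix mouse arrays. The replicates are called biological in the titles, which do not state whether equal numbers mark the same animal or whether animals were pooled.

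An mRNA that is being translated carries several ribosomes and sinks deep into a sucrose gradient, whereas a free mRNA, an RNA held in small particles or a nuclear RNA stays near the top. The share of an RNA that sediments with polysomes, its loading, is therefore used as a measure of how much of it is engaged in translation. Many mRNAs are held back or released as groups through shared features, such as a pyrimidine tract at the start of ribosomal protein mRNAs, an iron-responsive hairpin in ferritin mRNA, or elements bound by the cytoplasmic polyadenylation protein Cpeb1, which the series title names in connection with regrowth of axons in the adult central nervous system. Because each array was labelled from a set amount of RNA, the arrays give loading of each gene relative to the other genes and not the share of its molecules on polysomes. In bulk tissue, fewer cells of a type and less RNA per cell cannot be told apart, which bears on levels set between injured and sham cord; both fractions of a cord came from the same homogenate.

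The fractions differed across the whole array, and these measures bear on every result. The median deposited log2 value of the 10147 genes tested was 8.61 ± 0.03 (SD, n = 3) in injured total RNA and 8.10 ± 0.09 (SD, n = 3) in polysome-bound RNA, a shift of −0.51 (exact two-sided permutation p = 0.1, the smallest that 3 against 3 arrays allow). Differences between fractions are therefore given after centring each array on its median (centred difference), with the value after quantile normalization of the 6 arrays beside it. Levels are the deposited log2 values, so a centred difference is the difference of deposited levels plus 0.51. The median of 27 bacterial control probe sets that have no target in mouse was 6.06 in total and 5.71 in polysome-bound RNA, and 93.1% and 90.5% of genes lay above all of these controls. The Gapdh 3′ probe set exceeded the 5′ one by 1.40 ± 0.22 (SD, n = 3) in total and 2.83 ± 0.27 (SD, n = 3) in polysome-bound RNA on the log2 scale, against 0.23 and 0.87 in sham cord. For Actb this 3′ excess was 1.80 and 3.26, and for Pcx 2.45 and 2.47, whereas for Tfrc it was smaller on polysomes, 0.65 in total and 0.14 in polysome-bound RNA. A probe set for the B1 repeat, an element common in introns and nuclear RNA, read 14.55 in total and 11.45 in polysome-bound RNA. Array-wide level, B1 signal and the 3′ excess of Gapdh and Actb moved with the fraction, while the 3′ excess of Tfrc moved the other way and that of Pcx by 0.02, and their part in the gene results was not tested. Correlations across tested genes were 0.9959 to 0.9970 among total arrays, 0.9929 to 0.9948 among polysome arrays and 0.920 to 0.936 between fractions. Limma's array weights were lowest for polysome replicate 1, at 0.29, against 1.40 to 1.93 for the total arrays.

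**Figure D1:**
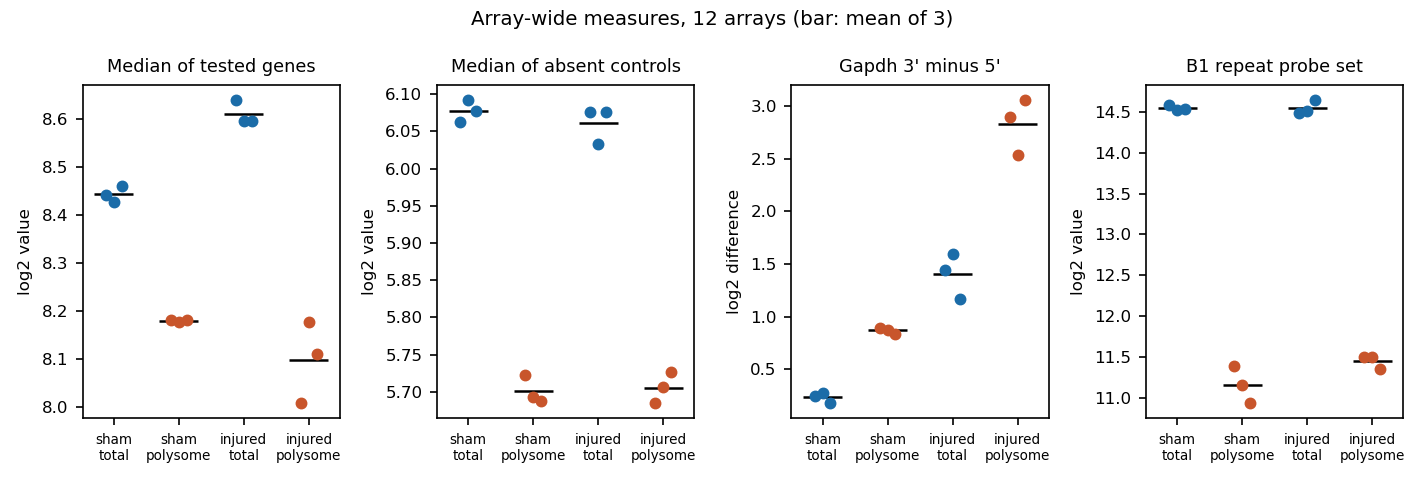
Array-wide measures on all 12 arrays, with 1 point per array and a bar at each group mean of 3: the median deposited log2 value of tested genes, the median of the absent controls, the log2 3′ minus 5′ difference of Gapdh, and the log2 value of the B1 repeat probe set. The axes do not start at 0. The injured polysome arrays have the lowest gene medians and the largest Gapdh 3′ excess, 2.83 on average.

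Of the 10147 genes tested with limma on centred values, 6845 (67.5%) passed a Benjamini-Hochberg adjusted p of 0.05, and 70.3% had an unadjusted p under 0.05. Of these, 4097 (40.4% of genes tested) were higher and 2748 (27.1%) were lower on polysomes. The median centred difference of all genes was 0.10, with quartiles at −0.23 and 0.40. After quantile normalization 7078 genes (69.8%) passed, 3912 higher (38.6%) and 3166 lower (31.2%), with a median of 0.05, and 3499 higher (34.5%) and 2615 lower (25.8%) calls were shared between the scalings. Calls in the higher direction made up 59.9% of calls after centring and 55.3% after quantile normalization, whereas on the values as deposited 82.2% of genes were called, 12.3% higher and 69.8% lower, with an all-gene median of −0.42. Lower calls were thus 85.0% of calls as deposited, against 40.1% after centring. A difference of at least 2-fold was called higher for 557 genes (5.49%) and lower for 360 (3.55%). The arrays of the fractions did not overlap for 72.0% of genes, with polysomes higher in 43.4% and lower in 28.7%. With so many genes called and apart, a list is described by its counts and median beside these shares.

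Among the largest deficits on polysomes were RNAs that code for no protein. Xist, the noncoding RNA that coats the silenced X chromosome in the nucleus, read 11.44, 11.36 and 11.48 in total RNA and 7.00, 6.92 and 6.92 in polysome-bound RNA. Neat1, the scaffold RNA of nuclear paraspeckles, read 12.03, 11.91 and 11.91 in total against 8.14, 8.15 and 8.77 on polysomes. For both, every polysome array lay more than 3 log2 units below every total array. The centred differences were −3.96 ± 0.08 (SE; limma adjusted p = 2.35e-11, 15.6-fold lower) for Xist and −3.09 ± 0.14 (SE; adjusted p = 4.18e-09, 8.49-fold lower) for Neat1. The other probe sets of Xist gave −1.32 and −0.63, smaller deficits than the brightest.

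Among 15 long noncoding RNAs and hosts of small nucleolar RNAs, 13 were lower, none was higher, and the median was −0.92 centred and −1.04 after quantile normalization. Snhg11 fell from 12.51, 12.58 and 12.70 in total to 9.25, 9.41 and 9.66 on polysomes (−2.65 ± 0.10 SE, limma adjusted p = 1.11e-09). Gas5, a small nucleolar RNA host known to be carried on polysomes and then degraded by nonsense-mediated decay, read 11.94, 11.99 and 11.88 against 8.95, 9.00 and 9.78. Its difference was −2.18 ± 0.17 (SE, adjusted p = 2.03e-07), and its other 3 probe sets gave −2.15, −2.62 and −2.79. Tug1 was lower by −1.17, with −0.55 and −0.26 on its other probe sets. The members that did not pass were Malat1 at −0.40 and Pvt1 at −0.18. In sham cord the median of the list was −0.88. Over all 68 genes that RefSeq classes as lncRNA, the median was −0.07 with 14 higher and 22 lower, and −0.02 with 23 higher and 27 lower after quantile normalization.

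An mRNA made outside the cytoplasmic system showed a deficit of like size. ND5, a subunit of respiratory complex I that is encoded in the mitochondrial genome and translated on mitochondrial ribosomes, read 13.70, 13.78 and 13.89 in total RNA and 9.95, 9.63 and 10.09 on polysomes. Its centred difference was −3.39 ± 0.12 (SE, limma adjusted p = 1.02e-09). In sham polysomes it read 11.30, 11.48 and 11.56, all above the injured polysome arrays. The nuclear-encoded respiratory chain stood on the other side: of 81 subunits, 60 were higher (74.1%) and 3 lower (3.7%), with a median of 0.50. Of all genes 40.4% were higher and 27.1% lower, and in the brightest of 10 bins by mean level 69.4% and 12.6%. Ndufb3, an accessory subunit of complex I, read 11.19, 11.12 and 11.11 in total and 12.11, 12.22 and 12.49 on polysomes (1.65 ± 0.09 SE, limma adjusted p = 1.53e-08). Ndufb7, at 1.50, Ndufs7, at 1.39, and Ndufs8, at 1.33, all of complex I, were also higher. After quantile normalization 37 of the 81 subunits were higher and 16 lower with a median of 0.15, beside 38.6% and 31.2% of all genes. On deposited values the median of the subunits was −0.01. Without polysome replicate 3 the lower calls numbered 6.

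**Figure D2:**
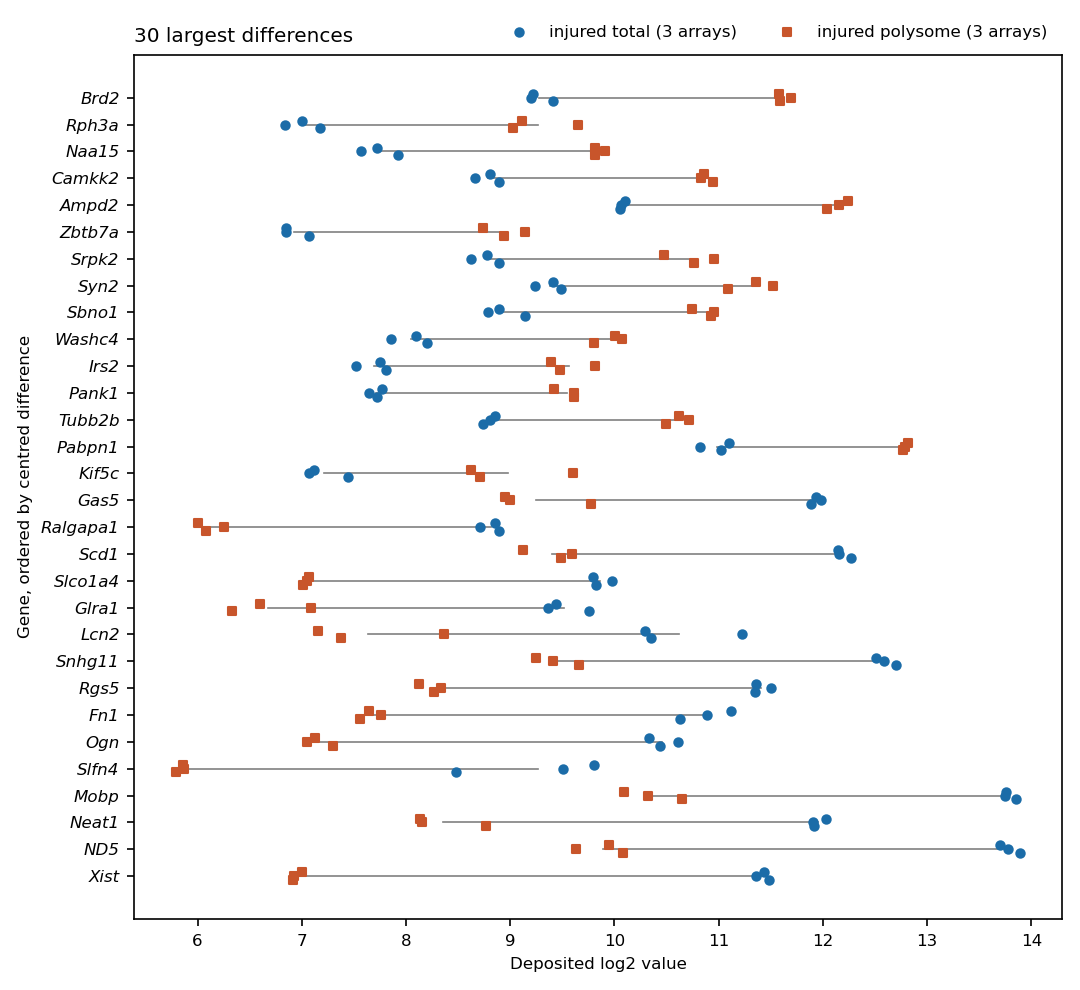
Deposited log2 values of the 30 genes with the largest centred differences that met the naming rule, 15 in each direction, in injured total RNA (circles) and polysome-bound RNA (squares), with 1 point per array and a grey line between the group means. The naming rule admitted only genes whose centred values do not overlap between fractions, so their separation is not a result. The array-wide shift of −0.51 is not removed here, so the centred differences of the genes higher on polysomes are larger than the gaps drawn.

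The other large deficits were in mRNAs of several kinds. Mobp, a myelin protein whose mRNA is known to travel out along oligodendrocyte processes, read 13.75, 13.75 and 13.86 in total and 10.10, 10.32 and 10.65 on polysomes. Fn1, the matrix glycoprotein fibronectin, read 11.12, 10.89 and 10.63 in total and 7.65, 7.76 and 7.56 on polysomes. Rgs5, a regulator of G protein signalling that marks pericytes, read 11.36, 11.50 and 11.35 against 8.12, 8.33 and 8.27. The centred differences of Mobp, Fn1 and Rgs5 were −2.92, −2.71 and −2.65. Separation of the fractions on all arrays was a condition for naming these genes. The other probe sets of Mobp gave −2.00 and −1.72, that of Fn1 −0.63, and those of Rgs5 −2.28, −0.29 and −0.20. Ogn, the matrix proteoglycan osteoglycin, was lower by −2.79 and Scd1, the stearoyl-CoA desaturase, by −2.28, with −2.33 and −0.21 on their other probe sets. Glra1, the alpha 1 subunit of the glycine receptor, was lower by −2.33 and was above the absent controls on 2 of the 3 polysome arrays. Slfn4, a schlafen gene of myeloid cells, and Ralgapa1, an activator of the GTPase activity of Ral proteins, were within the range of the absent controls on all 3 polysome arrays, so their differences of −2.91 and −2.19 have no measured lower end.

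The genes highest on polysomes were of several kinds. Brd2, a bromodomain reader of acetylated histones, read 9.22, 9.20 and 9.41 in total and 11.58, 11.69 and 11.59 on polysomes (2.86 ± 0.08 SE, limma adjusted p = 3.32e-10, 7.24-fold higher). Its other probe set stood at 0.09, and the mean of its probe sets gave 1.49. Rph3a, the Rab3 effector rabphilin on synaptic vesicles, read 7.00, 6.84 and 7.18 against 9.11, 9.65 and 9.03 (2.77 ± 0.13 SE, adjusted p = 5.22e-09), and was above the absent controls on 2 of the 3 total arrays. Irs2, an adaptor that carries insulin and IGF receptor signals, read 7.75, 7.52 and 7.81 against 9.39, 9.82 and 9.48 (2.38 ± 0.09 SE, adjusted p = 1.68e-09). Non-overlap of the fractions was a condition for naming these genes. Naa15, an anchor of N-terminal acetylation at the ribosome, was higher by 2.63, Camkk2, a calcium-dependent kinase kinase, by 2.61, and Ampd2, an AMP deaminase, by 2.59. Zbtb7a, a zinc finger repressor, was higher by 2.53 and exceeded the absent controls on 1 of 3 total arrays. Syn2, a synapsin, was higher by 2.46, Sbno1 by 2.45, Washc4, of the WASH complex of endosomes, by 2.42, Pank1, a pantothenate kinase of coenzyme A synthesis, by 2.35, and Kif5c, a kinesin heavy chain of neurons, by 2.28.

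Several of these genes were not alike along the transcript. Of the 15 genes highest on polysomes, 11 had other probe sets above the filter, and in 5 of the 11 at least 1 of these went the opposite way. The probe sets of Naa15 gave 2.63, −0.61, −0.87 and −0.41, those of Srpk2, a kinase of splicing factors, 2.48, 1.65, −0.19 and −0.85, and those of Pabpn1, the nuclear poly(A)-binding protein, 2.32, 0.16, −0.06 and −1.53. Without polysome replicate 2 or 3 another probe set of Srpk2 became the brightest, with a difference of −0.20. Another probe set of Pank1, at 0.53 with all arrays, became the brightest without any 1 of the polysome arrays, and the value for the gene was then as low as 0.49. Of the 15 lowest, 7 had other probe sets, and all of those were below 0. Over all genes with a second probe set, the second was called in the same direction for 54.2% of 1767 genes called higher and for 59.3% of 1120 called lower, and in the opposite direction for 17.3% and 14.6%. The loading given for a gene is therefore that of its brightest probe set.

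The 4 Cpeb genes, which encode RNA-binding proteins of cytoplasmic polyadenylation, differed from each other. Cpeb1 read 9.07, 9.07 and 9.22 in total and 8.63, 8.87 and 8.43 on polysomes, a centred difference of 0.04 ± 0.10 (SE, limma adjusted p = 0.751) that did not pass the test. Cpeb3 read 8.70, 8.63 and 8.75 against 10.42, 10.61 and 10.01, without overlap (2.16 ± 0.12 SE, adjusted p = 1.88e-08), with 2.31 and 0.34 on its other probe sets. Cpeb2 was higher by 0.67 (adjusted p = 2.1e-05), and Cpeb4 stood at 0.17 (adjusted p = 0.102). Among 26 factors of polyadenylation, 12 were higher and 7 lower with a median of 0.18, and 10 and 8 with 0.10 after quantile normalization. The centred shares, 46.2% and 26.9%, were near the 40.4% and 27.1% of all genes. The cleavage and polyadenylation subunits Cpsf3, at 1.14, and Cpsf2, at 0.96, and their partner Fip1l1, at 0.73, were higher.

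Genes of the cytosolic ribosome were low on polysomes as a group, with exceptions. Of 42 ribosomal protein genes, 23 were lower and 8 higher, with a median of −0.26. After quantile normalization 33 were lower and 2 higher, with a median of −0.57, and leaving out any of the total arrays left 5 higher. Rps26 read 12.50, 12.35 and 12.37 in total and 10.23, 10.69 and 10.86 on polysomes (−1.30 ± 0.11 SE, limma adjusted p = 5.53e-07). Rplp0, the stalk protein, was lower by −1.17 and Rpl37 by −0.99. Rpl27a went the other way, from 8.53, 8.62 and 8.62 to 8.89, 9.21 and 9.41 (1.09 ± 0.10 SE, adjusted p = 8.16e-07). Ribosomal protein genes have many processed pseudogenes, and signal from such copies cannot be separated here. The sham median of the list was −0.18.

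The mRNAs of this family begin with a C followed by a run of pyrimidines, through which their translation is switched as a group. The starts below show 5 members on different sides, with 5 bases before and 25 from the RefSeq start in GRCm38.p6 on the coding strand. Capitals mark the first pyrimidine run that holds CTTT. Rpl12 has a later one in lower case, and the run of Rpl35, 18 bases long, begins before the printed bases.
Rps26 (chr10:128626482-128626511, minus strand): ccgccggaTCCTCTTTCgagtcttggctcc
Rpl12 (chr2:32961707-32961736, plus strand): gatccgTCTTTTCggctttcggctcggagg
Rps6 (chr4:86857343-86857372, minus strand): cgggCCTCTTTTTCgtgacgcctcccaggc
Rpl35 (chr2:39005107-39005136, minus strand): CTTTCCTCTTTCTCTCgaaccaggctgctt
Rpl27a (chr7:109519190-109519219, plus strand): gCTCCTCCCTTTTCCCTTTCTgccaccgcc
Centred differences of these genes were −1.30, −1.09, −0.48, 0.35 and 1.09, so a pyrimidine run stood at the start of members that were low and of members that were high. Rpl12 was not above the absent controls on any polysome array. Of 37 ribosomal protein genes with an annotated start, 11 (29.7%) held CTTT in the first 20 bases, against 7.26% of the 8108 other tested genes and 7.57% of all starts in the table. On the opposite strand the motif was in 5.41% of the ribosomal protein genes and 7.29% of the others. The median difference was −0.02 in ribosomal protein genes with the motif, of which 4 were higher and 5 lower, and −0.26 in those without it (−0.37 and −0.64 after quantile normalization). Annotated starts can lie some bases away from those used in the cord, and no match says only that the letters are not in this window.

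The rest of the translation machinery was mixed. Of 16 elongation factor and other pyrimidine-tract genes, 8 were higher and 4 lower (2 lower without total replicate 3). Their median was 0.24 centred but −0.16 after quantile normalization, where 3 were higher and 8 lower. Of 41 initiation factors, 23 were higher (56.1%) and 8 lower (19.5%) with a median of 0.29, beside 40.4% and 27.1% of all genes. After quantile normalization 15 were higher and 11 lower with a median of 0.03, beside 38.6% and 31.2% of all genes. The median of the initiation factors as deposited was −0.22. Eif2s2, the beta subunit of the eIF2 complex that brings the initiator tRNA, read 10.43, 10.33 and 10.38 in total and 12.08, 12.09 and 12.10 on polysomes (2.22 ± 0.07 SE, limma adjusted p = 8.14e-10). Its 3 polysome arrays lay within 0.02 of each other, and its other probe sets ranged from −0.27 to 1.83. Without any 1 of the polysome arrays another probe set became the brightest, with a difference as low as 0.14, and the call was lost without polysome replicate 2 or 3 (highest limma adjusted p = 0.164). Eif2b4, of the exchange factor eIF2B, was higher by 1.61 and Eif4e3, a cap-binding protein, by 1.54, with −0.31 on the other Eif4e3 probe set.

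Mitochondrial ribosomal proteins, which are made in the cytosol, were higher in 56 of 73 cases and lower in 5, with a median of 0.42 (0.32 after quantile normalization, −0.09 as deposited). Over all genes 40.4% were higher and 27.1% lower, or 38.6% and 31.2% after quantile normalization, and these shares stand beside each family here. Mrpl11 read 9.47, 9.48 and 9.34 in total and 10.53, 10.67 and 10.68 on polysomes (1.71 ± 0.07 SE, limma adjusted p = 3.12e-09), with 0.86 and 1.53 on its other probe sets. Proteasome subunits were higher in 32 of 45 cases and lower in 3 (5 without polysome replicate 3), with a median of 0.51 (0.23 after quantile normalization, with 7 lower, and 0.00 as deposited). Psmd13 of the regulatory particle was higher by 1.94 with 1.98 on its other probe set, and Psmd3 by 1.50. Of 22 heat shock chaperones, 16 were higher and none lower, with a median of 0.46, and Hspd1, the mitochondrial chaperonin, was higher by 1.05, Bag3 by 1.01 and Dnaja1 by 1.00. After quantile normalization 11 chaperones were higher and 4 lower, with a median of 0.25, and as deposited the median was −0.06.

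Tubulin genes and genes of synaptic vesicles and release were mostly higher on polysomes after centring, where 40.4% of all genes were higher. Of 11 tubulins, 10 were higher and none lower, with a median of 0.83 centred, 0.53 after quantile normalization and 0.32 as deposited. Tubb2b, a beta tubulin of growing neurons, read 8.85, 8.81 and 8.74 in total and 10.62, 10.72 and 10.49 on polysomes (2.32 ± 0.08 SE, limma adjusted p = 8.14e-10). Tubb3, the neuronal beta tubulin, read 10.57, 10.62 and 10.67 against 12.05, 12.05 and 11.98 (1.92 ± 0.08 SE, adjusted p = 2.3e-09). Neither overlapped between fractions, which the naming rule required of Tubb2b. Tubb4b, higher by 0.19, turned lower after quantile normalization, and Tubb6, at −0.16, did not pass. Of 38 genes of synaptic vesicles and release, 28 were higher and 3 lower with a median of 0.57 (0.33 after quantile normalization, with 7 lower, and 0.06 as deposited). Sv2a, a vesicle glycoprotein, was higher by 1.88 and Rab3a, the vesicle GTPase, by 1.50.

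Ion channels and transmitter receptors were divided, with 24 of 79 higher, 27 lower and a median of 0.01 (−0.02 after quantile normalization). Kcna1, a voltage-gated potassium channel of axons, read 10.32, 10.23 and 10.61 in total and 11.36, 11.78 and 11.42 on polysomes (1.65 ± 0.11 SE, limma adjusted p = 6.97e-08), whereas Cacnb2, a calcium channel subunit, was lower by −1.25 and at the level of the absent controls on polysomes. Of 30 genes linked to axon regrowth, 14 were higher and 7 lower, with a median of 0.18 that became −0.03 after quantile normalization. These shares, 46.7% and 23.3%, were near the 40.4% and 27.1% of all genes. Basp1, a growth cone protein, was higher by 0.94 and Jun, the AP-1 transcription factor, by 0.77.

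**Figure D3:**
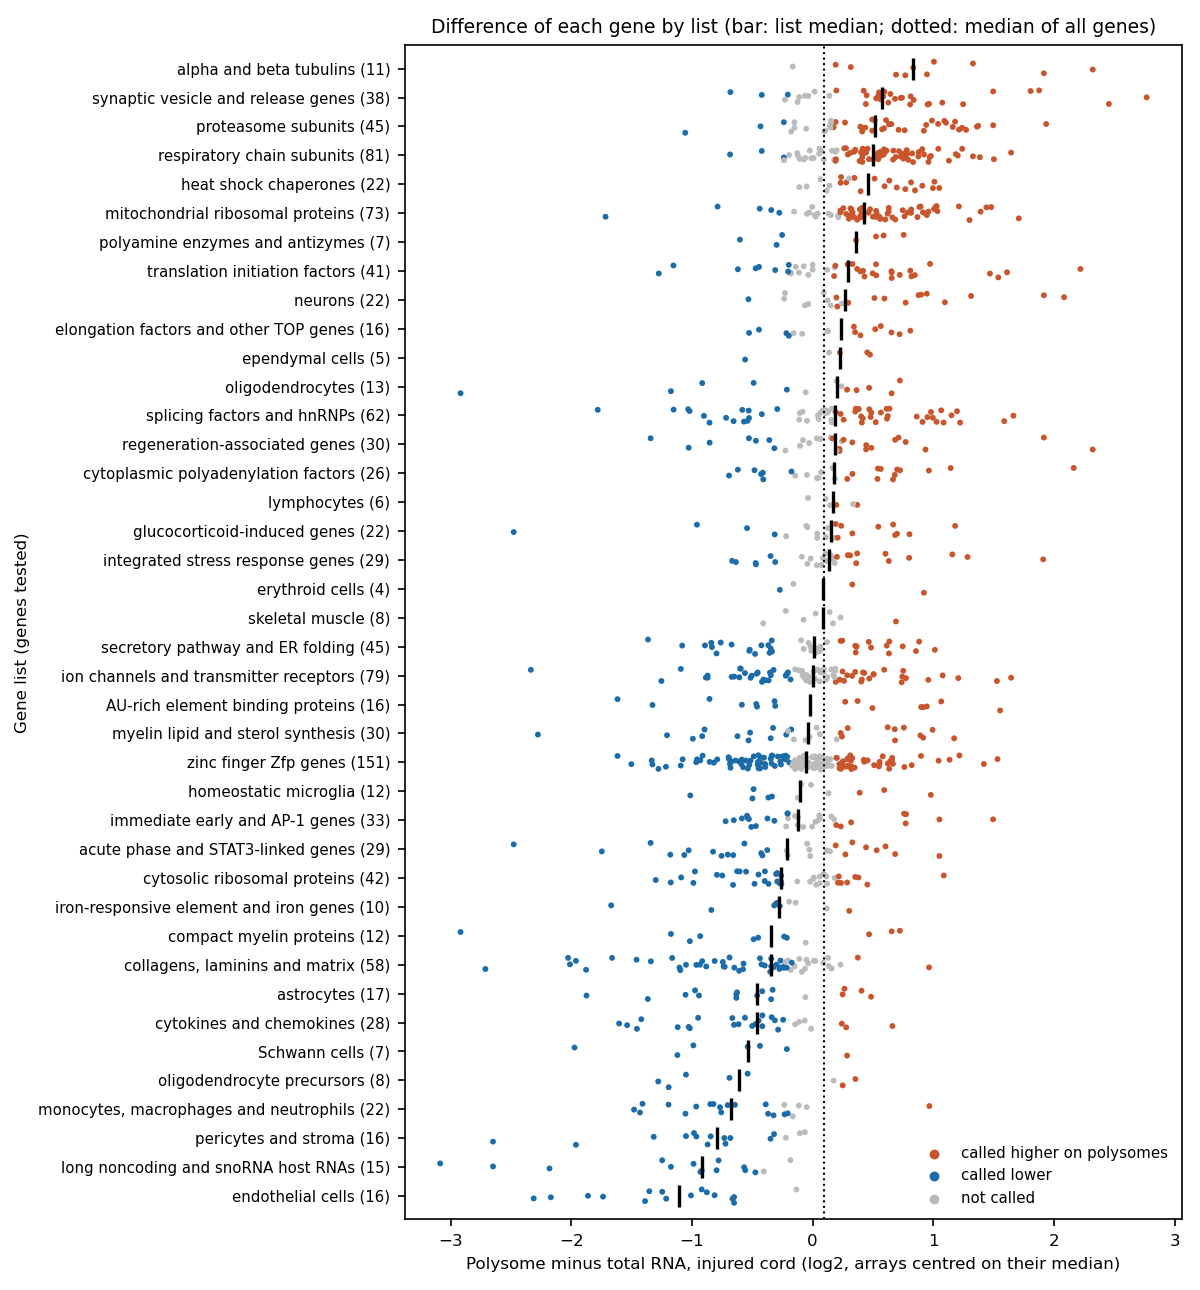
Centred log2 difference, polysome-bound minus total RNA in injured cord, of each tested gene in 40 gene lists, ordered by list median (black bar), with the number of genes tested in parentheses; the dotted line is the median of all genes, 0.10. Colour shows the limma call. Tubulins, with a median of 0.83, and endothelial markers, with −1.11, stand at the ends; quantile normalization turns the medians of neuron and oligodendrocyte markers, pyrimidine-tract, regeneration-associated, glucocorticoid, erythroid, secretory and ion channel genes below 0.

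Markers of cell types were used to check the tissue and to see whose mRNAs were low. Neuron, astrocyte and oligodendrocyte markers were detected. Of 16 endothelial markers, 15 were lower and none higher, with a median of −1.11 (−1.23 after quantile normalization). Flt1, a VEGF receptor, read 9.40, 9.26 and 9.40 in total and 6.70, 6.80 and 6.52 on polysomes (−2.17 ± 0.08 SE, limma adjusted p = 1.23e-09), with −0.66 and −0.25 on its other probe sets. Slco1a4, an organic anion transporter of brain vessels, was lower by −2.31, Abcb1a, the drug efflux pump, by −1.86, and Vwf, the von Willebrand factor, by −1.74. Egfl7, at −0.13, was the marker that did not pass. In sham cord the median was −1.17, and all 16 were lower. Of 16 pericyte and stroma markers, 13 were lower and none higher, with a median of −0.79, and Pdgfrb, the PDGF receptor of pericytes, was lower by −1.32. Myh11, lower by −0.98, was at the level of the absent controls on polysomes, and its other probe set gave 0.33. Without any 1 of the total arrays that probe set became the brightest, and the value of Myh11 was above 0. Matrix genes behaved alike, with 40 of 58 lower, 2 higher and a median of −0.35 (−0.46 after quantile normalization, with 5 higher). Col4a1, a basement membrane collagen, was lower by −2.01, Col4a2 by −1.88 and the fibrillar collagen Col3a1 by −1.96.

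Of 22 markers of monocytes, macrophages and neutrophils, 17 were lower and 1 higher, with a median of −0.67 in either scaling. Itgam, among the lower ones at −1.41, was at the level of the absent controls on polysomes. Lyz1, a lysozyme gene, read 10.37, 10.58 and 10.23 in total and 8.05, 8.69 and 8.46 on polysomes (−1.48 ± 0.12 SE, limma adjusted p = 3.22e-07); its near-copy Lyz2 was lower by −1.43, and their signals may cross. Ms4a6c, a membrane protein of monocytes, was the higher one, by 0.97. Microglial markers were divided, with 3 of 12 higher and 5 lower (3 lower without total replicate 1). C1qa, a complement subunit, was higher by 0.98 and Cx3cr1, the fractalkine receptor, by 0.59, whereas P2ry12, a purine receptor, was lower by −1.01 and at the level of the absent controls on polysomes.

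Of 17 astrocyte markers, 12 were lower and 4 higher (2 higher without total replicate 2), with a median of −0.46, or −0.80 after quantile normalization, where 1 was higher. Aqp4, the water channel of astrocyte endfeet, read 11.86, 11.87 and 11.89 in total and 9.88, 10.06 and 10.05 on polysomes (−1.37 ± 0.07 SE, limma adjusted p = 1.01e-08), with 0.08 on its other probe set. Ntsr2, a neurotensin receptor, was lower by −1.87 and Fgfr3 by −1.05, with −0.25 on the other Fgfr3 probe set. Of 22 neuron markers, 13 were higher and 1 lower, with a median of 0.27. After quantile normalization 10 were higher and 7 lower, with a median of −0.06. Rbfox3, the splicing factor known as NeuN, read 7.73, 7.46 and 7.74 against 9.06, 9.36 and 9.23 (2.08 ± 0.08 SE, adjusted p = 1.58e-09). Of 8 markers of oligodendrocyte precursors, 5 were lower and 2 higher. Of 7 Schwann cell markers, 6 were lower and 1 higher (none higher after quantile normalization). Pmp22, a myelin protein of peripheral nerve, was lower by −1.97. Dhh, lower by −0.99, was at the level of the absent controls on polysomes, and its other probe set gave 0.31. Without any 1 of the total arrays that probe set became the brightest, and the value of Dhh was above 0. Markers of lymphocytes (6 tested), erythroid cells (4), skeletal muscle (8) and ependymal cells (5) had medians of 0.17, 0.09, 0.08 and 0.23. Both fractions come from whole cord homogenates, and what set the marker lists apart was not tested.

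Myelin genes did not move together. Of 12 compact myelin and related genes, 8 were lower and 3 higher, with a median of −0.34 (−0.68 after quantile normalization). Beside Mobp, the lower ones were Mal at −1.17, Tspan2 at −1.02, Pllp at −0.93, Cldn11 at −0.49, Plekhb1 at −0.45, Omg at −0.24 and Mbp at −0.21. The other probe set of Mal gave −0.23. Cnp, a phosphodiesterase of myelin, read 13.51, 13.57 and 13.62 in total and 13.81, 13.75 and 13.78 on polysomes (0.72 ± 0.07 SE, limma adjusted p = 2.53e-06), with Mag at 0.66 and Gjb1 at 0.47 also higher. In lipid and sterol synthesis 11 of 30 genes were higher and 12 lower, from Scd1 at −2.28 and Cers2, a ceramide synthase, at −1.21 to Fdft1, the squalene synthase, at 1.17. The other probe sets of Fdft1 gave 0.70, 0.18 and 0.02. Of 45 genes of the secretory pathway and ER folding, 15 were higher and 17 lower with a median of 0.01, and 6 and 24 with −0.21 after quantile normalization. Tram1, at −1.08, Stt3a, at −0.83, and Pdia3, at −0.80, which act in translocation, glycosylation and folding, were lower, and Sec62, a translocation factor, was higher by 1.01.

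Genes induced by injury did not share 1 direction. Of 28 cytokines and chemokines, 21 were lower and 3 higher (1 higher without total replicate 1 or 2), with a median of −0.46 in either scaling. Cxcl2, a neutrophil-attracting chemokine, read 8.64, 9.21 and 8.66 in total and 6.35, 7.09 and 6.72 on polysomes (−1.60 ± 0.16 SE, limma adjusted p = 1.69e-06). Ccl2, which attracts monocytes, read 8.90, 9.10 and 8.31 against 6.64, 7.11 and 6.65 (−1.46 ± 0.16 SE, adjusted p = 5.45e-06). The polysome arrays lay below the total arrays for both, and Cxcl2 was above the absent controls on 2 of the 3 polysome arrays. Of 29 acute phase and STAT3-linked genes, 14 were lower and 8 higher, with a median of −0.21 (5 higher and −0.24 after quantile normalization). Lcn2, the iron-binding lipocalin of acute inflammation, read 10.29, 11.23 and 10.35 against 7.15, 8.37 and 7.38 (−2.48 ± 0.27 SE, adjusted p = 3.95e-06). Osmr, the oncostatin M receptor, was lower by −1.75, and Lifr, the LIF receptor, by −1.06. Their other probe sets gave −1.01 and −0.24. Jak1, at −0.82, had other probe sets at 0.80 and 1.42, and the mean of its probe sets was 0.48.

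Immediate early and AP-1 genes were divided as well, with 8 of 33 higher (5 without total replicate 3), 12 lower and a median of −0.12. Jund read 9.99, 10.03 and 9.97 in total and 10.73, 11.13 and 11.08 on polysomes (1.50 ± 0.08 SE, limma adjusted p = 1.77e-08), and Gadd45b, a stress sensor, was higher by 0.76. Klf2, at −0.65, and Egr2, at −0.54, both transcription factors, were lower. The transcription factor genes Junb and Cebpd, which were chosen for display after their values were seen, stood at 1.05 and 0.68, and Socs3 and Timp1, inhibitors of cytokine signalling and of matrix proteases and chosen in the same way, at −1.34 and −1.18. Of 29 genes of the integrated stress response, 11 were higher (37.9%) and 6 lower (20.7%) with a median of 0.14, beside 40.4% and 27.1% of all genes. Phgdh, of serine synthesis, was higher by 1.91 with 1.99, 1.18 and 1.29 on its other probe sets. Asns, the asparagine synthetase, was higher by 1.28 and Sesn2 by 1.16, with 0.34 and 0.09 on their other probe sets. Of 22 glucocorticoid-induced genes, 10 were higher (45.5%) and 4 lower (18.2%), beside 40.4% and 27.1% of all genes. After quantile normalization 6 were higher and 7 lower. Klf9 was higher by 1.18, with −0.24 to 1.11 on its other probe sets, and Per1, a clock gene, by 0.70.

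**Figure D4:**
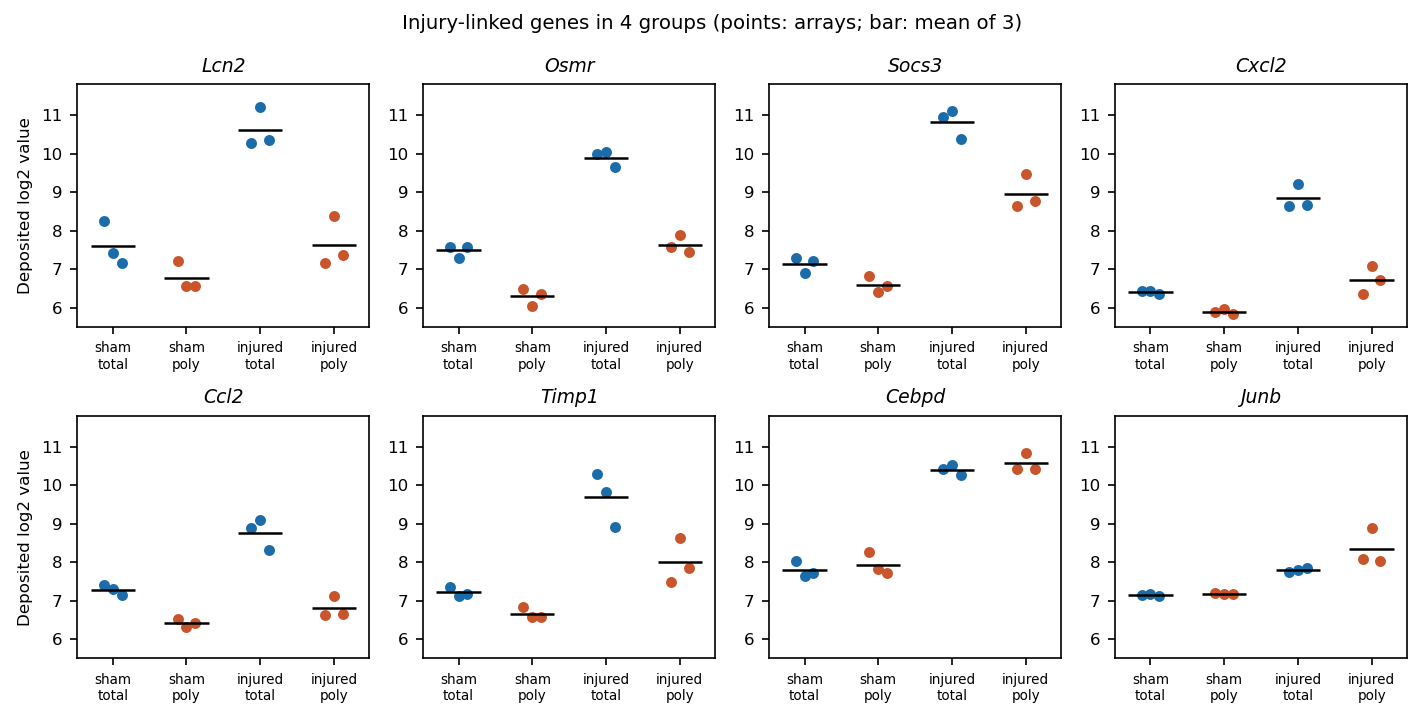
Deposited log2 values of 8 genes linked to injury in sham and injured cord, in total and polysome-bound RNA, with 1 point per array and a bar at the mean of 3. Lcn2, Osmr, Socs3, Cxcl2, Ccl2 and Timp1 are lower on injured polysomes than in injured total RNA on every array, whereas Junb is higher on every array and the deposited values of Cebpd overlap.

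Among the other groups of regulated mRNAs, Fth1, the ferritin heavy chain whose mRNA carries an iron-responsive hairpin, had the clearest difference. It read 14.27, 14.28 and 14.40 in total and 12.01, 12.17 and 12.22 on polysomes (−1.67 ± 0.07 SE, limma adjusted p = 2.93e-09), with −1.16 on its other probe set. In all 10 iron genes tested, 6 were lower and 1 higher (none higher after quantile normalization); Slc40a1, the iron exporter ferroportin, was lower by −0.84 and at the level of the absent controls on polysomes. In the polyamine pathway 4 of 7 genes were higher and 3 lower. The antizymes Oaz1 and Oaz2 were higher by 0.53 and 0.76, ornithine decarboxylase Odc1 by 0.59, and the acetyltransferase Sat1 lower by −0.60. Odc1 stood at 0.26 after quantile normalization, and its other probe sets gave 0.03 and −0.08. Of 16 proteins that bind AU-rich elements, 8 were higher and 8 lower with a median of −0.02. After quantile normalization 5 were higher and 8 lower, with a median of −0.25. Elavl2, a neuronal stabilizing factor, was higher by 1.55. Zfp36l2, a decay factor, was lower by −1.62, with −0.27 on its other probe set. Of 62 splicing factors, 31 were higher (50%) and 15 lower (24.2%), but 21 and 22 after quantile normalization. Over all genes 40.4% were higher and 27.1% lower, or 38.6% and 31.2% after quantile normalization. Clk1, a splicing kinase whose transcript is known to be held in the nucleus with introns, read 11.04, 10.95 and 11.08 against 8.78, 8.55 and 8.86 (−1.78 ± 0.10 SE, adjusted p = 2.3e-08). Of 151 Zfp zinc finger genes, 41 were higher (27.2%) and 57 lower (37.7%), with a median of −0.05 in these data and −0.22 in sham cord. Zfp280c was lower by −1.50 and Zfp612 higher by 1.53.

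The centred difference moved with brightness. In 10 bins of genes by mean level, the median was lowest at −0.07 and reached 0.47 in the brightest bin, where 69.4% of genes were higher and 12.6% lower. After quantile normalization the medians of the bins lay between 0.02 and 0.11. Bright families, such as the respiratory chain and proteasome, are therefore given above with both scalings. By the span of the gene on the genome the median was 0.15 in the bin of the shortest genes and 0.05 in that of the longest, with a lowest value of 0.02 in between. The share called lower was 18.6% in the bin of the shortest genes and 32.4% in that of the longest, and the share called higher was 43.6% and 37.1%.

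The same difference was measured in the sham arrays, which share no array with the injured ones. Across the 10147 genes the differences in injured and sham cord had a Pearson correlation of 0.817 and a Spearman correlation of 0.784 (0.844 for Pearson after quantile normalization). Genes are not independent replicates, so this is a description. In sham cord 77.1% of genes passed, 37.8% higher and 39.3% lower. Of the genes higher on polysomes in injured cord, 3017 (29.7% of genes tested) were also higher in sham cord, and of those lower, 2103 (20.7%) were also lower. All 15 of the largest gains were also called higher in sham cord, and 14 of the 15 largest deficits were also called lower; the exception was Lcn2, at −0.57 in sham cord.

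**Figure D5:**
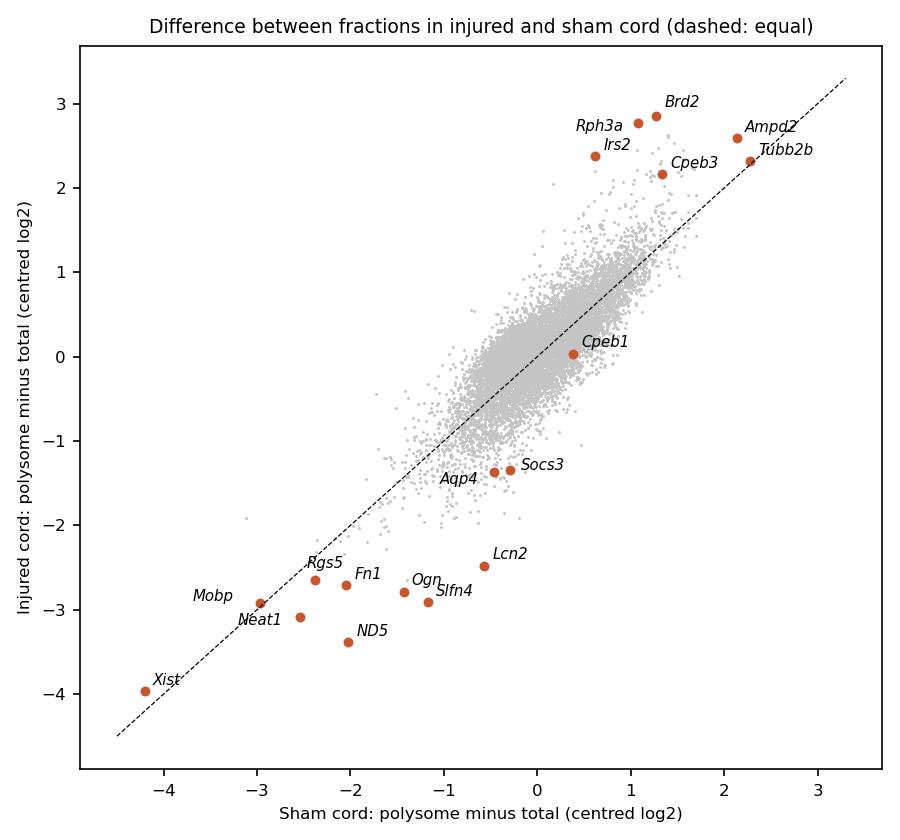
Centred log2 difference between polysome-bound and total RNA of the 10147 tested genes, in sham cord (x axis) and injured cord (y axis); the dashed line marks equal values and 18 genes are named. Xist and Mobp lie near the line at the low end, Irs2, Brd2 and Rph3a above it, and Lcn2, Slfn4 and ND5 below it.

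Injured and sham loading were then compared by a limma interaction over all 12 arrays. Of the genes tested, 5001 (49.3%) differed after centring, 3237 upward (31.9%) and 1764 downward (17.4%), and 3503 (34.5%) after quantile normalization, 1633 upward (16.1%) and 1870 downward (18.4%). Without adjustment 55.8% had a p under 0.05. Upward calls were thus 64.7% of calls after centring and 46.6% after quantile normalization, and the gene results below had the same sign in both. Genes named for a large difference in injured cord were chosen on the same injured arrays, and that choice favours a gap in the same direction. Irs2 had a difference of 0.62 in sham and 2.38 in injured cord, a gap of 1.77 ± 0.11 (SE, limma adjusted p = 1.24e-07). In sham cord it read 8.53, 8.48 and 8.54 in total and 8.90, 8.83 and 8.88 on polysomes, so the injured total arrays were lower and the injured polysome arrays higher than their sham counterparts. Rph3a gained 1.69 and Brd2 1.59 relative to sham. Kcna1 gained 1.21, and ion channels and receptors as a list had 37 of 79 genes upward and 5 downward, or 20 and 7 after quantile normalization.

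In the other direction, Lcn2 differed by −1.91 ± 0.44 (SE, limma adjusted p = 0.00253), from −0.57 in sham to −2.48 in injured cord. In sham cord it read 8.26, 7.41 and 7.17 in total and 7.22, 6.57 and 6.55 on polysomes, where the highest absent control averaged 6.46. ND5 differed by −1.37, Cxcl2 by −1.35, Lyz1 by −1.14, Pmp22 by −0.94 and Aqp4 by −0.90. Cxcl2 was above the absent controls on 2 of the 3 injured polysome arrays. The other probe set of Aqp4 stood at 0.08 between fractions in injured cord. Genes of the secretory pathway and ER folding had 24 of 45 downward and 3 upward (19 and 2 after quantile normalization) and a median of −0.27, against 0.07 for all genes (−0.18 and −0.0068 after quantile normalization). Pdia3, a disulfide isomerase, differed by −0.78, from −0.02 in sham to −0.80 in injured cord. Cers2 differed by −0.90 and Nsdhl, of sterol synthesis, by −0.76. The microglial genes Cx3cr1 and C1qa differed upward by 0.95 and 0.82, whereas P2ry12 and Tmem119 stood at 0.06 and 0.03. Of 12 microglial markers 4 differed upward and none downward, beside 31.9% and 17.4% of all genes. The monocyte gene Ms4a6c differed upward by 0.92, against the lean of its list. Of 22 markers of monocytes, macrophages and neutrophils, 5 differed upward and 7 downward (2 and 10 after quantile normalization). Cpeb1 differed by −0.34 (adjusted p = 0.0282), from 0.38 to 0.04, but its adjusted p was 0.0626 after quantile normalization, and Cpeb3 by 0.83. The Gapdh 3′ excess was larger in injured than in sham cord in either fraction, and its part in these gaps was not tested.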

How the data were processed

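The 12 arrays carried total or polysome-bound RNA of injured or sham mouse spinal cord (3 each), and the 6 injured ones form the comparison. The authors deposited 1 table of processed log2 values for 22690 Affymetrix probe sets. The log2 scale is read from its range, 5.26 to 14.65; background correction, summarization and normalization are not given in the sources used here. Since there are no counts, precision is limited by the number of arrays. Probe sets were named through the platform annotation: 20393 name 1 gene, 691 several and 1606 none, and 20364 matched a RefSeq symbol. Probe sets above their array's 25th percentile on at least 3 of the 6 arrays were kept (16114), and the brightest per gene was used (10147 genes). Arrays were centred on their median, and limma 3.58.1 (R 4.3.3) was fitted with lmFit and eBayes with an intensity trend, two-sided, with Benjamini-Hochberg adjustment over all genes and a threshold of 0.05. The fit had 4 residual and a median of 12.2 total degrees of freedom. Quantile normalization gave the values beside it, and a model over 12 arrays gave the injured minus sham contrast and the sham calls. Array measures used exact permutation tests. On simulated data with log2 changes of 0.25, 0.5, 1 and 2 the fit recovered 16%, 72%, 98% and 100% of changed genes, with 3.38% false calls. In that simulation 50 genes were changed per size, with independent noise and no array-wide shift. In the data 67.5% of genes were called, so these shares do not carry over to the calls made here. Replicate numbers were checked for pairing by the correlation of equal-numbered deviations, which was −0.09, 0.21 and 0.10 in injured and 0.23, 0.18 and 0.17 in sham cord; the main fits use no block. The named genes are the 15 largest differences in each direction that pass in both scalings, do not overlap and lie above the absent controls in the brighter group, up to 4 members per list by adjusted p, all members of lists of up to 12 genes, and the 4 Cpeb genes. The 40 lists and the rules were chosen with earlier results of these data known. Start sequences are from RefSeq (GRCm38.p6), which held a start for 8145 tested genes. P-values measure the spread between these arrays.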

Additional observations from a re-analysis of the deposited data

Results flagged for a closer look

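Differences between fractions that were not alike in injured and sham cord are given here as injured minus sham (centred log2), each tested by the limma interaction over 12 arrays; 49.3% of all genes passed this test. Upward differences among the largest gains on polysomes were 1.77 for Irs2, 1.69 for Rph3a, 1.59 for Brd2, 1.38 for Sbno1, 1.23 for Naa15, 1.2 for Camkk2, 1.2 for Washc4, 1.19 for Srpk2, 1.07 for Zbtb7a, 0.99 for Pabpn1, 0.96 for Kif5c, 0.9 for Syn2, 0.78 for Pank1 and 0.46 for Ampd2. These genes were chosen on the same injured arrays, and that choice favours upward values; over all genes 31.9% differed upward after centring and 16.1% after quantile normalization. Cpeb3 differed by 0.83. For Srpk2 and Pank1 the value turns negative when another probe set becomes the brightest.

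Downward differences were −1.91 for Lcn2, −1.74 for Slfn4, −1.37 for ND5, −1.35 for Ogn, −0.66 for Fn1, −0.66 for Scd1, −0.55 for Neat1 and −0.37 for Ralgapa1. Slfn4 and Ralgapa1 were at background on the injured polysome arrays. Xist differed upward by 0.24 (limma adjusted p = 0.0499), and this value was −0.0099 on the values as deposited.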

How the results depend on the processing

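On the values as deposited, 1250 genes were called higher and 7086 lower, and 1051 and 4083 for injured minus sham, because the array-wide shift then enters every gene. Upward calls for injured minus sham numbered 1633 after quantile normalization and 1727 with a filter at the array median; the cause was not tested. The other settings kept these counts within 1.5 times. Leaving out 1 array at a time gave 3545 to 3994 higher and 2382 to 2959 lower genes, and 2717 to 3312 upward and 1469 to 1966 downward for injured minus sham. The replicate block gave 4087 higher and 2765 lower as a fixed term and 4076 and 2724 as a random term (injured minus sham 3223 and 1852, 3279 and 1796); equal numbers deviated together in every sham pair but not in every injured pair. As a fixed term the block brought Rgs5 (−0.27) and Snhg11 (−0.27) past the threshold for injured minus sham, and it changed the calls of Acta1, Cd3d and Ighm between fractions.

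Signs turned as follows; the array-wide shift accounts for the first group and the choice of probe set for the others. As deposited: Bpgm −0.18, Cd3d −0.32, Cd4 −0.14, Dnah11 −0.29, Foxj1 −0.059, Rsph1 −0.036 and, for injured minus sham, Xist −0.0099. Averaging the probe sets of each gene: Bpgm −0.11, Jak1 0.48 and Pabpc1 −0.39. Without probe sets shared between transcripts: Eif3c −0.076, Eif3e −0.14 and Nap1l1 −0.17. Leaving out 1 array at a time gave −1.03 to 0.35 for Dhh, −1.01 to 0.36 for Myh11 and −1.37 to 0.11 for Zfp329, above 0 without any 1 of the total arrays. It gave −0.20 to 2.56 for Srpk2 (injured minus sham −0.45 to 1.27), below 0 without polysome replicate 2 or 3, and −0.037 to 0.83 for Pank1, injured minus sham, below 0 without polysome replicate 1 or 3. Of the 30 largest differences, Srpk2 was the 1 that changed its call in some setting in which it was tested. Slfn4 was tested in 15 of the 18 settings and Zbtb7a in 17, so their calls are unknown in the others. Among other named genes, P2ry12 and Slc7a11 were tested in 14 and Itgam in 15. A gene could pass the filter on the 3 arrays of 1 fraction alone, and it was not tested where too few arrays passed.

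Depth is unknown; genes at the level of the absent controls have only a bound on that side. Protein length was not analysed here and gene span was used in its place, a choice made after seeing the data, as was the count limited to genes above the absent controls (3933 higher, 2705 lower).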
